A study of Drosophila melanogaster with 12 samples.

Results

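The salivary glue genes of Drosophila melanogaster encode the secreted proteins with which a larva glues itself to its support before it pupates. The 8 genes were taken by name from the deposited tables, out of 13939 gene names there. They are Sgs1, Sgs3, Sgs4, Eig71Ee, Sgs5, Sgs7, Sgs8 and CG7587, the neighbor of Sgs5, which the RefSeq gene table now lists as Sgs5bis. The genes were selected on their measured FPKM ratios in these tables, low in smox and high with activated Baboon, so these differences are described here and support no test.

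Glue proteins are made in the larval salivary glands late in the last larval instar, when the steroid hormone ecdysone acts through its receptor and the transcription factors of the early puffs to switch the glue genes on. The proteins are packed into large secretory granules and expelled onto the support before the puparium forms. Sgs1, Sgs3, Sgs4 and Eig71Ee encode mucin-like proteins, long chains with repeats that carry many sugars, while Sgs5, CG7587, Sgs7 and Sgs8 encode short cysteine-rich proteins.

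RNA had been sequenced from larval carcass, the muscle and epidermis left after the gut was dissected out, of foraging larvae late in the last instar, in 12 libraries that form 4 groups of 3. The smox larvae, of genotype Smox(Smad2)F4/Y, carried a mutant allele of the Smad gene Smox over the Y chromosome and were set against w1118 larvae, used as wild type. Both were raised on yeast paste with no treatment. The MhcGal4>baboACT larvae, tub-Gal80ts/+;MhcGal4/baboACT, expressed an activated form of the Activin receptor Baboon under the Mhc muscle driver and were set against larvae with the driver alone, tub-Gal80ts/+;MhcGal4/+. Both of these carried temperature-sensitive Gal80, ate standard vial food and spent 12 h at 30 °C before RNA extraction. The first comparison asks what depends on Smox, the second what responds to Activin receptor activity in muscle.

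The authors deposited 1 FPKM per gene and group (fragments counted per transcript length and per library depth), so replicate spread cannot be given for any level or ratio. FPKM is a level per transcript length, and genes are compared on it only within a group. A gene is said to rise, fall or be called where the authors' deposited q was under 0.05. Smox itself stood at 1.40 FPKM in smox larvae, against 23.9 FPKM in w1118 larvae, and babo at 15.6 FPKM in MhcGal4>baboACT larvae, against 13.2 FPKM in MhcGal4 larvae. Markers of both tissues of the carcass were abundant: those of epidermis and cuticle summed to 75722 FPKM in smox and 58985 FPKM in w1118 larvae, and those of muscle to 39880 FPKM in smox and 41757 FPKM in w1118 larvae. A listed 0 need not mean that a transcript was absent, since Mhc, the muscle myosin heavy chain gene, was listed at 0 in smox and at 2892 FPKM in w1118 larvae, and the muscle actin gene Act57B at 0 in all 4 groups. Salivary glands are not part of the carcass as labelled, and how much gland each dissection left was not measured. In such bulk samples a larger remainder of gland and more glue RNA per gland cell cannot be told apart.

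Glue transcripts were scarce in smox larvae and abundant in larvae with activated Baboon, each against its own control. Summed over the 8 genes, they came to 36.6 FPKM in smox larvae and 658 FPKM in w1118 larvae, an 18.0-fold lower sum in smox. The sum was 2332 FPKM in MhcGal4>baboACT larvae and 58.1 FPKM in MhcGal4 larvae, a 40.2-fold higher sum with activated Baboon. In smox larvae 7 of the 8 genes were called lower in the authors' deposited table, where 39.9% of the 7719 genes measured were called lower. Sgs1 was not tested there. With activated Baboon all 8 were called higher, where 29.2% of 7754 genes were. These counts follow from how the members were chosen, and nothing is read from them. With a 2-fold minimum added, the counts of 7 and 8 stood beside 4.68% of all genes called lower and 4.55% higher in smox, and 4.66% higher and 1.75% lower with activated Baboon. In either direction 58.3% of genes were called in smox and 43.9% with activated Baboon, or 9.22% and 6.41% with the 2-fold minimum. Each called member had q = 0.000152 in the smox table or q = 0.000217 in the baboACT table, the lowest value of that deposited table, so the q-values do not rank the genes.

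**Figure D1:**
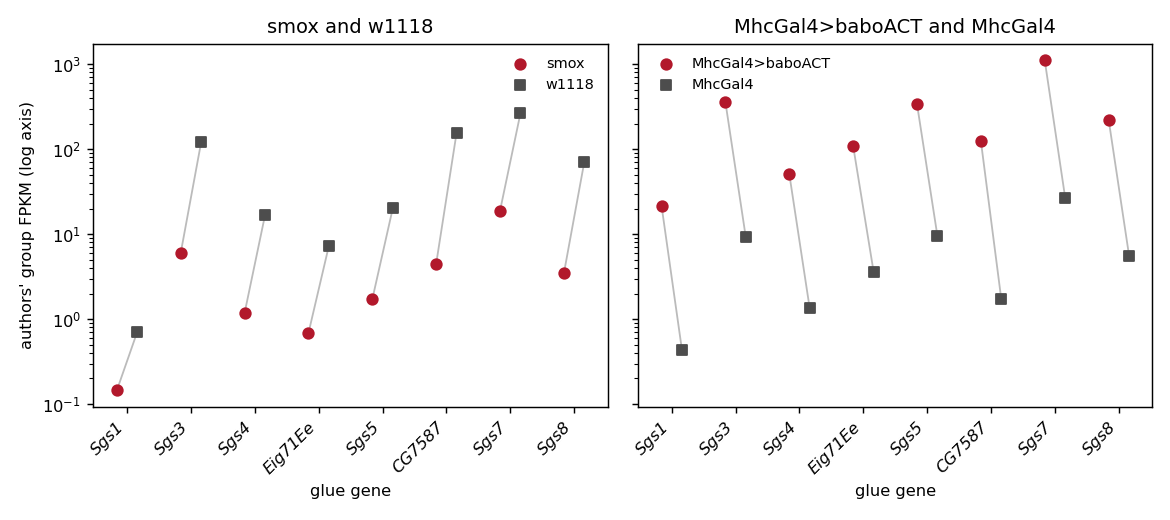
The authors' group FPKM of the 8 glue genes on a log axis, smox (circles) and w1118 (squares) on the left, MhcGal4>baboACT (circles) and MhcGal4 (squares) on the right; grey lines join the values of 1 gene. All 8 lie lower in smox than in w1118 and higher in MhcGal4>baboACT than in MhcGal4, and Sgs7 is the highest in each of the 4 groups.

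Among the mucin-like genes, Sgs3 had the highest level. It lies on 3L from 11505321 to 11506503 by the deposited positions, whose build is unnamed, and the BDGP6 annotation gives it 2 exons and 307 codons. Sgs3 had 5.97 FPKM in smox and 120 FPKM in w1118 larvae, a log2 ratio of -4.33. It had 359 FPKM in MhcGal4>baboACT and 9.15 FPKM in MhcGal4 larvae, a log2 ratio of 5.30. The groups with the higher level were thus MhcGal4>baboACT in one experiment and the w1118 control in the other. The tables were normalized separately, and the experiments differ in food, temperature and genetic background, so levels are compared only within each experiment.

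Sgs4, a mucin-like gene on X, had 1.17 FPKM in smox and 16.6 FPKM in w1118 larvae, a log2 ratio of -3.82. It had 51.2 FPKM in MhcGal4>baboACT and 1.34 FPKM in MhcGal4 larvae, a log2 ratio of 5.25. The tables give Sgs4 only a locus of 162886 bases that it shares with other genes, 9 rows in all, so its own position is not stated there. The smox larvae carried 1 X chromosome, and the sex of the w1118 larvae is not stated. The part of X chromosome number in the ratio of Sgs4 was not tested.

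Eig71Ee, an intermoult gene that lies among late genes of the same name, had 0.683 FPKM in smox and 7.28 FPKM in w1118 larvae, a log2 ratio of -3.41. With activated Baboon it had 109 FPKM, against 3.63 FPKM in MhcGal4 larvae, and its log2 ratio of 4.91 was the smallest rise of the 8. It is on 3L from 15647572 to 15649110 and has 445 codons.

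Sgs1, the longest of the 8 with 1286 codons, is on 2L from 4937409 to 4941424. It was the lowest of the 8 in every group. In smox larvae it had 0.145 FPKM and in w1118 larvae 0.707 FPKM, values that the authors did not test. Sgs1 had 21.7 FPKM in MhcGal4>baboACT larvae and 0.434 FPKM in MhcGal4 larvae, a log2 ratio of 5.64. Its ratios rest on values under 1 FPKM in 3 of the 4 groups: with a pseudocount of 1 FPKM the log2 ratio of Sgs1 was -0.58 in smox and 3.98 with activated Baboon.

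Of the short proteins, that of Sgs7 had the most abundant transcript in all 4 groups. Sgs7, on 3L from 11502961 to 11503347 with 74 codons, had 18.9 FPKM in smox and 266 FPKM in w1118 larvae, a log2 ratio of -3.81. It had 1105 FPKM in MhcGal4>baboACT and 26.7 FPKM in MhcGal4 larvae, a log2 ratio of 5.37. In the order of all 13650 rows by FPKM, Sgs7 stood at place 154 in MhcGal4>baboACT larvae and 2178 in MhcGal4 larvae. In smox larvae it was at place 2752, against place 366 in w1118 larvae.

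Sgs8 encodes a short protein of 75 codons and lies 466 bases from Sgs7 on the opposite strand, from 11502067 to 11502494 on 3L. It had 3.48 FPKM in smox and 71.4 FPKM in w1118 larvae, a log2 ratio of -4.36. With activated Baboon it had 222 FPKM, against 5.59 FPKM in MhcGal4 larvae, a log2 ratio of 5.31. Sgs7 and Sgs8 are related in sequence, as are Sgs5 and CG7587, and how reads matching both genes of a pair were counted is not stated, so levels within a pair are uncertain.

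Sgs5, on 3R from 13421084 to 13421834, had 1.71 FPKM in smox and 20.1 FPKM in w1118 larvae, a log2 ratio of -3.55. It had 338 FPKM in MhcGal4>baboACT and 9.48 FPKM in MhcGal4 larvae, a log2 ratio of 5.16. CG7587 ends 300 bases before Sgs5 begins and shares its strand and its 3-exon structure. CG7587 had 4.49 FPKM in smox and 156 FPKM in w1118 larvae. Its log2 ratio of -5.12 was the largest fall of the 8 and the 11th lowest among the 7719 genes measured. It had 124 FPKM in MhcGal4>baboACT and 1.70 FPKM in MhcGal4 larvae, and its log2 ratio of 6.19 was the largest rise of the 8 and the 3rd highest among the 7754 genes measured.

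The 2 kinds of protein did not separate in the size of their changes. In smox the 4 mucin-like genes had a median log2 ratio of -3.62 and a range of -4.33 to -2.29, and the 4 short ones a median of -4.08 and a range of -5.12 to -3.55. With activated Baboon the medians were 5.27 for the mucin-like genes and 5.34 for the short ones. Over all 8 genes the median log2 ratio was -3.82 in smox, where the median of all genes measured was -0.14, and 5.30 with activated Baboon, where that median was 0.08.

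The mixture of glue transcripts was described by the share of each gene in the summed FPKM of the 8, which does not depend on how a library was scaled. Sgs7 made up 51.7% in smox, 40.3% in w1118, 47.4% in MhcGal4>baboACT and 46.0% in MhcGal4 larvae. The mucin-like genes together held between 21.8% and 25.1% in the 4 groups. The neighbors Sgs3, Sgs7 and Sgs8 together held 77.6% in smox and 69.4% in w1118 larvae, and 72.4% in MhcGal4>baboACT and 71.4% in MhcGal4 larvae. The order of the 8 by level began with Sgs7 and ended with Sgs1 in all 4 groups, while the total differed 18.0-fold in one experiment and 40.2-fold in the other.

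The steadiest pair was Sgs3 and Sgs8. The level of Sgs3 was 1.71 times that of Sgs8 in smox and 1.68 times in w1118 larvae, and 1.62 times in MhcGal4>baboACT and 1.64 times in MhcGal4 larvae. The ratio moved by a factor of 1.06 over the 4 groups, the smallest among the 28 pairs of members. Next came Eig71Ee and Sgs5, on 3L and 3R, whose ratio moved by a factor of 1.24. The ratio of Sgs4 to Sgs7, which lie on different chromosomes, moved by a factor of 1.35, and that of the neighbors Sgs7 and Sgs8 by 1.46.

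Sgs5 and CG7587, although adjacent, did not keep their proportion. CG7587 exceeded Sgs5 2.62-fold in smox and 7.80-fold in w1118 larvae. In the other experiment Sgs5 exceeded CG7587, 2.72-fold in MhcGal4>baboACT and 5.57-fold in MhcGal4 larvae. Their ratio moved by a factor of 43.4 over the 4 groups, with CG7587 ahead in both groups of the smox experiment and Sgs5 ahead in both groups of the other. Eig71Ee also held a larger share in the second experiment, 4.68% in MhcGal4>baboACT and 6.25% in MhcGal4 larvae, than in the first, 1.87% in smox and 1.11% in w1118 larvae. Genetic background, food and temperature differ together between the experiments and cannot be told apart here. How reads matching both Sgs5 and CG7587 were counted is not stated, so their proportion is uncertain. The part of read counting in their change of order was not tested.

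**Figure D2:**
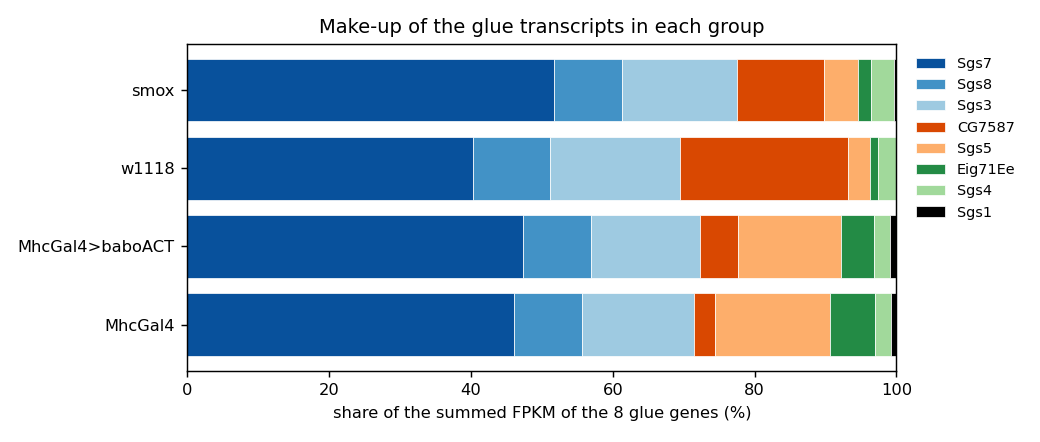
Share of each glue gene in the summed FPKM of the 8 (%), 1 bar per group in the order smox, w1118, MhcGal4>baboACT and MhcGal4. Sgs7 (dark blue) holds 40.3% to 51.7% in every group, while CG7587 (dark orange) exceeds Sgs5 (light orange) in smox and w1118 larvae and falls short of it in MhcGal4>baboACT and MhcGal4 larvae.

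Genes beside the glue loci were read to see how far along the chromosome the pattern reached. Sgs8, Sgs7 and Sgs3 span a short stretch of 3L. The closest measured row at lower coordinates, chrb, had 15.1 FPKM in smox and 9.29 FPKM in w1118 larvae, and 14.5 FPKM in MhcGal4>baboACT and 13.8 FPKM in MhcGal4 larvae. On the other side CG7512 was under 1 FPKM in all 4 groups. Within 40 kb of the start of Sgs7, 3 rows that are not glue genes had levels high enough to compare, chrb, Fuca and a row that names CG11714 and Mob2 together, and their log2 ratios lay between -0.24 and 0.71 in smox and between -0.41 and 0.45 with activated Baboon.

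Beside Sgs5 the pattern did extend to a further gene. CG7606, on 3R from 13422258 to 13422639, begins 423 bases after Sgs5 ends. CG7606 had 3.27 FPKM in smox and 55.5 FPKM in w1118 larvae, a log2 ratio of -4.09 (q = 0.000152 in the authors' deposited table). CG7606 had 42.0 FPKM in MhcGal4>baboACT and 0.632 FPKM in MhcGal4 larvae, a log2 ratio of 6.05 that missed the threshold (q = 0.161 in the authors' deposited table). Farther along, the Golgi transporter gene sll had log2 ratios of -0.48 in smox and 0.44 with activated Baboon. Sgs1 is flanked by hoe2, which had 17.8 FPKM in smox and 8.50 FPKM in w1118 larvae, and 11.5 FPKM in MhcGal4>baboACT and 20.0 FPKM in MhcGal4 larvae, called in the opposite direction to the glue genes in each (log2 ratios of 1.07 and -0.81).

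**Figure D3:**
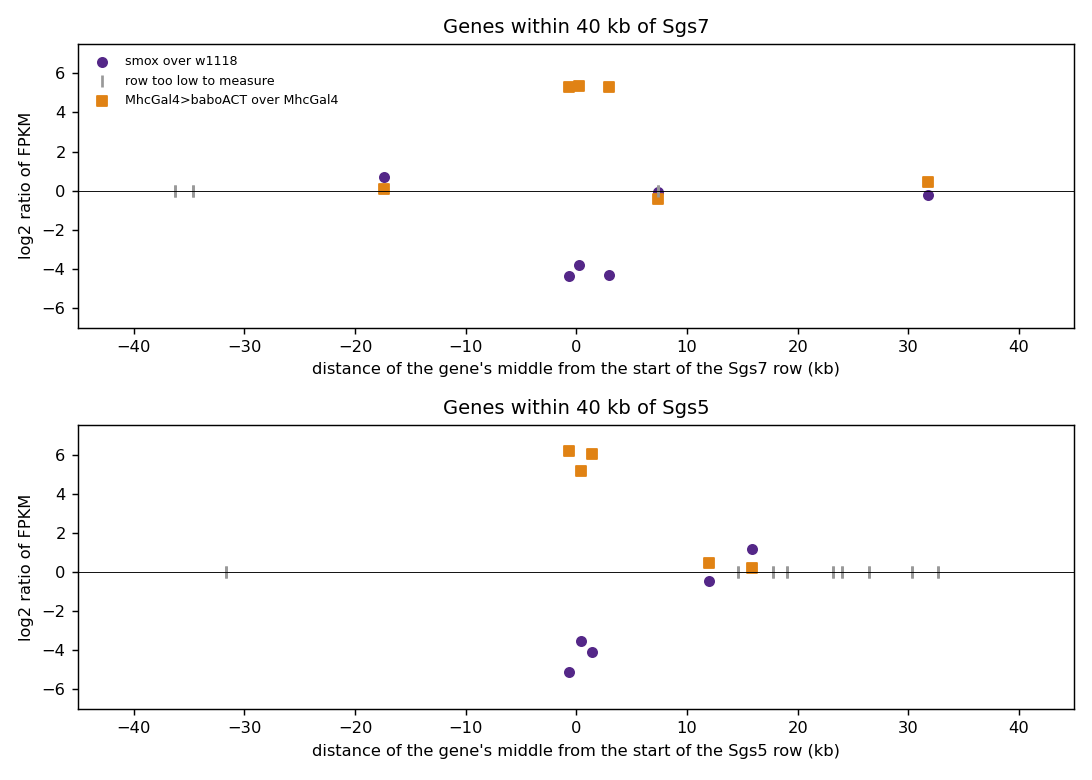
Log2 ratio of FPKM for genes within 40 kb of Sgs7 (top) and Sgs5 (bottom), against the distance of the gene's middle from the start of that row in kb; circles are smox over w1118, squares MhcGal4>baboACT over MhcGal4, and grey ticks rows too low to measure. Only the 3 genes Sgs8, Sgs7 and Sgs3 (top) and CG7587, Sgs5 and CG7606 (bottom) lie beyond 3 on the log2 scale in both experiments.

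Eig71Ee stands among 10 late genes, Eig71Ea to Eig71Ek, which are known to be switched on after the glue genes. Of these, 8 were listed at 0 in all 4 groups, among them Eig71Ed and Eig71Ef on either side of Eig71Ee. The other members, Eig71Ea and Eig71Eb, were listed at 0 in smox larvae and at 0.171 and 0.144 FPKM in w1118 larvae, and at 0.592 and 0.344 FPKM in MhcGal4>baboACT larvae and at 0 in MhcGal4 larvae. None was tested by the authors, and a listed 0 does not show that these genes were silent.

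The locus that the tables give for Sgs4 also holds the intermoult genes ng1 to ng4 and Pig1, which are active in salivary glands before or with the glue genes. In the smox experiment they were too low to compare with Sgs4. Summed over the 5 genes they came to 2.25 FPKM in smox and 1.57 FPKM in w1118 larvae, and 1 of the 5, ng3, was tested by the authors and not called. In the other experiment they came to 123 FPKM in MhcGal4>baboACT and 26.6 FPKM in MhcGal4 larvae. All 5 were higher there, ng4 on 0.653 against 0 FPKM and without a test. Of the 4 measured, 1 was called higher, where 29.2% of all genes measured were. The called gene was ng3, at 93.9 FPKM in MhcGal4>baboACT and 19.9 FPKM in MhcGal4 larvae, a log2 ratio of 2.24. Pig1 had 11.1 FPKM in MhcGal4>baboACT and 3.49 FPKM in MhcGal4 larvae (q = 0.13 in the authors' deposited table). CG14265, in the same locus, was at 0.946 FPKM in smox and 0.506 FPKM in w1118 larvae. It rose to 154 FPKM in MhcGal4>baboACT larvae, against 42.7 FPKM in MhcGal4 larvae (log2 ratio 1.85). On the FPKM scale, ng3 stood above Sgs4 in MhcGal4>baboACT and MhcGal4 larvae, and Sgs4 stood above ng3 in w1118 larvae. In smox larvae both were low, ng3 at 1.56 FPKM and Sgs4 at 1.17 FPKM.

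Across both experiments together, 127 genes were at least 2-fold lower in smox and at least 2-fold higher with activated Baboon among 7512 measured in both, and 7 of them were glue genes. Likeness was taken as the distance from the median pair of log2 ratios of the 8 members, over 2 ratios from 4 groups. The 6 other genes nearest were CG42460 (distance 0.31), CG12715 (0.43), CG13856 (0.50), CG7606 (0.80), CG3502 (1.09) and CG9863 (1.48). The farthest member, CG7587, lay at 1.58, and 9 other genes lay no farther than that. Most of these neighbors in pattern were low: CG42460 had 0.384 FPKM in smox and 4.90 FPKM in w1118 larvae, and 15.3 FPKM in MhcGal4>baboACT and 0.469 FPKM in MhcGal4 larvae. CG3502 reached 47.3 FPKM in MhcGal4>baboACT larvae, against 1.20 FPKM in MhcGal4 larvae. Which genes are nearest depends on the settings: 3 of the 6 stayed among the nearest 6 with a pseudocount of 1 FPKM and 2 of the 6 with a mean of at least 5 FPKM, CG7606 and CG3502 in both cases.

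**Figure D4:**
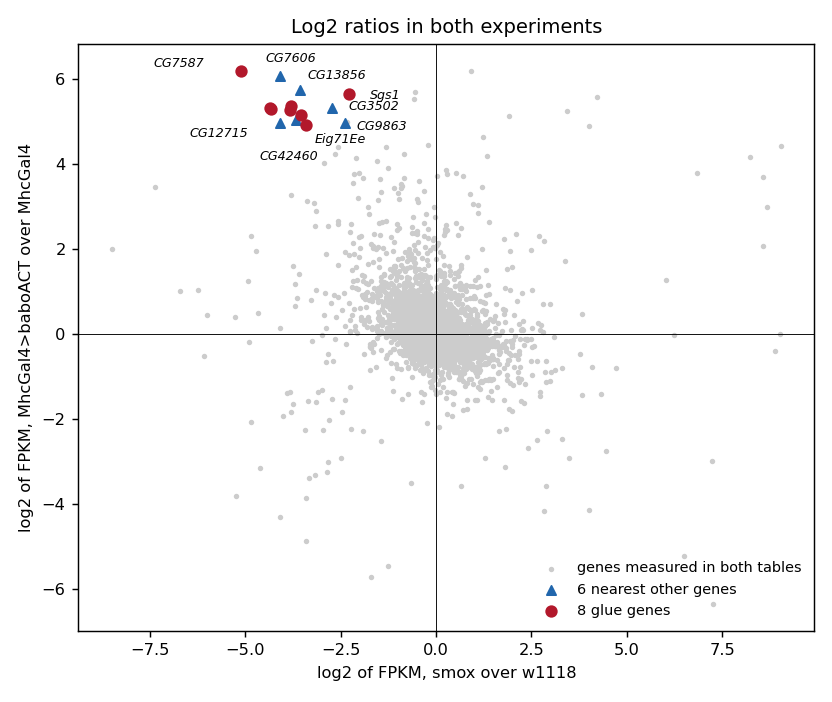
Log2 ratio of FPKM of MhcGal4>baboACT over MhcGal4 (vertical axis) against that of smox over w1118 (horizontal axis); grey points are the 7512 genes measured in both tables, circles the 8 glue genes and triangles the 6 nearest other genes. The glue genes lie at -5.12 to -2.29 on the horizontal and 4.91 to 6.19 on the vertical axis; Sgs1 was not tested in smox.

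Markers of the salivary gland itself were next compared. The list holds 11 genes, and 5 could be measured in smox, 0 of them called higher and 2 called lower. That share was close to the 39.9% of all genes measured that were called lower. The count of 2 fell to 1 with a 2-fold minimum and to 1 with a mean of at least 5 FPKM. Of the 11 listed, 3 were higher and 8 lower in smox, called or not, several of them under 1 FPKM. The 2 called genes were PH4alphaSG2, a prolyl hydroxylase gene of the gland, and CrebA, a transcription factor of secretory cells. PH4alphaSG2 had 0.278 FPKM in smox and 2.89 FPKM in w1118 larvae, a log2 ratio of -3.38 (q = 0.00767 in the authors' deposited table). CrebA had 11.5 FPKM in smox and 16.3 FPKM in w1118 larvae, a log2 ratio of -0.50.

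With activated Baboon 6 gland markers could be measured, and 4 of them were called higher and 0 lower, where 29.2% of all genes measured were called higher. The count of 4 fell to 2 at a q of 0.01 and to 1 with a mean of at least 5 FPKM. Of the 11 listed, 10 were higher and 0 lower with activated Baboon, called or not, several of them under 1 FPKM. The gland transcription factor gene sage had 5.09 FPKM in MhcGal4>baboACT and 1.30 FPKM in MhcGal4 larvae, a log2 ratio of 1.97. The sulfotransferase gene pip had 4.16 FPKM in MhcGal4>baboACT and 1.58 FPKM in MhcGal4 larvae (log2 ratio 1.40). PH4alphaSG2 had 2.35 FPKM in MhcGal4>baboACT and 0.267 FPKM in MhcGal4 larvae, a log2 ratio of 3.14 (q = 0.0226 in the authors' deposited table). The remaining called marker was Papss, at 6.15 FPKM in MhcGal4>baboACT and 5.12 FPKM in MhcGal4 larvae. Its log2 ratio was 0.27 (q = 0.0448 in the authors' deposited table), and it was the 1 left with a mean of at least 5 FPKM. These rises were smaller than the 4.91 to 6.19 of the glue genes, which had been chosen on their ratios. The 7 glue genes tested in smox spanned -5.12 to -3.41. The -3.38 of PH4alphaSG2, resting on 0.278 FPKM in smox larvae, lay just outside that range. The -0.50 of CrebA lay farther outside it. The glue genes reached -2.29 only through Sgs1, which was not tested in smox.

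Among the gland's regulators, fkh and hkb were close to the lower end of the tables. The gene fkh had 0.141 FPKM in smox and 0.259 FPKM in w1118 larvae, and 0.532 FPKM in MhcGal4>baboACT and 0.197 FPKM in MhcGal4 larvae, and was not tested. The early gland gene hkb was listed at 0 in all groups but smox. The list's summed level was 32.3 FPKM in smox and 42.0 FPKM in w1118 larvae, and 52.6 FPKM in MhcGal4>baboACT and 39.2 FPKM in MhcGal4 larvae, most of it from CrebA, Papss and CG30463 (pgant9), whose products also act outside the gland. The part of gland remainder in the glue values was not tested.

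**Figure D5:**
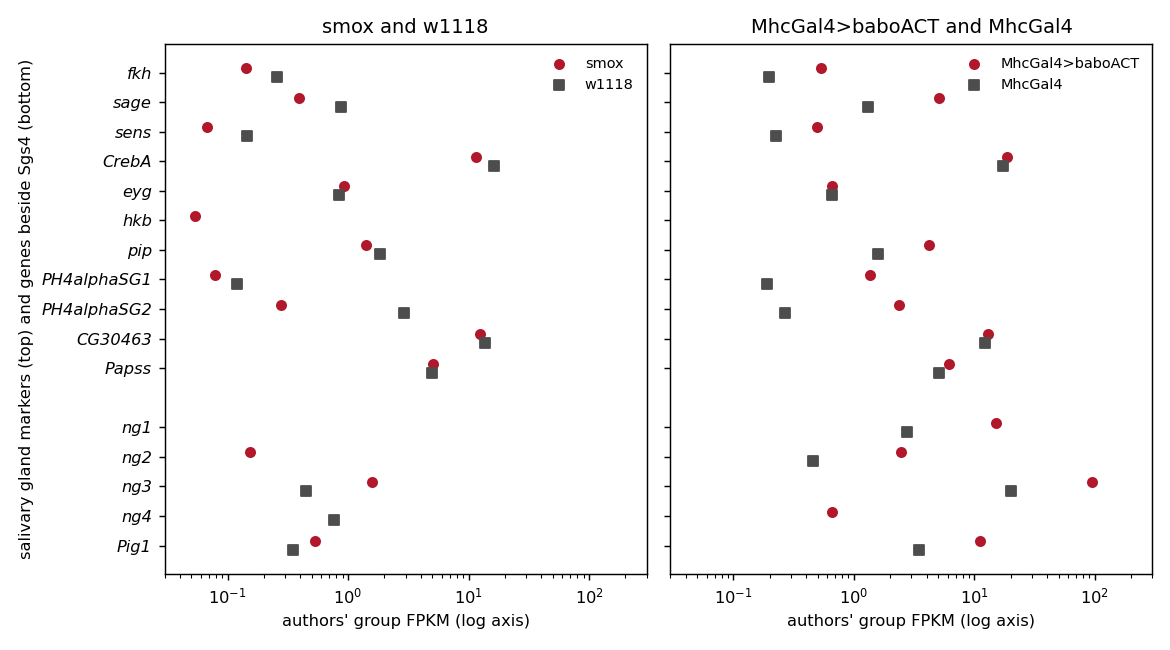
The authors' group FPKM (log axis) of 11 salivary gland markers (top) and 5 intermoult genes beside Sgs4 (bottom), smox (circles) and w1118 (squares) on the left, MhcGal4>baboACT (circles) and MhcGal4 (squares) on the right; values of 0 are not drawn. The markers sage, pip, PH4alphaSG1 and PH4alphaSG2 lie higher in MhcGal4>baboACT than in MhcGal4, and the intermoult genes are near the lower end in smox and w1118. PH4alphaSG1 had a mean under 1 FPKM and is not counted among the 4 called markers, which include Papss.

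Genes of the ecdysone cascade, which controls when glue genes are switched on and off, moved in both directions in smox and mostly up with activated Baboon. Of 20 measured in smox, 5 rose and 10 fell, where 18.4% of all genes measured rose and 39.9% fell. Their median log2 ratio was -0.16, close to the -0.14 of all genes measured. The broad gene br, an early transcription factor needed for glue gene activity, had 38.3 FPKM in smox and 91.6 FPKM in w1118 larvae (log2 ratio -1.26). Eip78C, a nuclear receptor gene, was called higher in both experiments, with 15.9 FPKM in smox and 0.846 FPKM in w1118 larvae, and 28.1 FPKM in MhcGal4>baboACT and 0.594 FPKM in MhcGal4 larvae. Cyp18a1, which inactivates ecdysone, had 48.0 FPKM in smox and 6.57 FPKM in w1118 larvae (log2 ratio 2.87). Of 21 measured with activated Baboon, 16 rose and 1 fell, where 29.2% of all genes measured rose and 14.7% fell, and their median log2 ratio was 0.59. There br had 128 FPKM in MhcGal4>baboACT and 59.6 FPKM in MhcGal4 larvae (log2 ratio 1.10). The 1 that fell was Cyp18a1, with 35.2 FPKM in MhcGal4>baboACT and 54.6 FPKM in MhcGal4 larvae (log2 ratio -0.63). The nuclear receptor gene Hr46 had 2.27 FPKM in MhcGal4>baboACT and 0.142 FPKM in MhcGal4 larvae. Hr46 was higher in smox too, at 1.36 FPKM against 0.388 FPKM in w1118 larvae (q = 0.000152 in the authors' deposited table). Its mean there was under 1 FPKM, so it is not in the smox counts. ImpE2 had 13.0 FPKM in MhcGal4>baboACT and 2.49 FPKM in MhcGal4 larvae, a log2 ratio of 2.38. Fbp1, a hormone-responsive fat body gene, fell in smox and rose with activated Baboon: it had 31.1 FPKM in smox and 66.7 FPKM in w1118 larvae, and 28.8 FPKM in MhcGal4>baboACT and 10.4 FPKM in MhcGal4 larvae.

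The secretory pathway, through which glue leaves the gland cell and which every tissue uses, gave small ratios in both experiments. Of 12 genes measured in smox, 2 rose and 7 fell, where 18.4% of all genes measured rose and 39.9% fell, and their median log2 ratio was -0.30. Of 12 with activated Baboon, 9 rose and 0 fell, where 29.2% of all genes measured rose, and their median was 0.28. With a 2-fold minimum 0 of these genes were called in either experiment. The small GTPase gene Rab7 had 117 FPKM in smox and 166 FPKM in w1118 larvae, and 169 FPKM in MhcGal4>baboACT and 124 FPKM in MhcGal4 larvae. Rab6, another small GTPase gene, had 39.5 FPKM in smox and 54.7 FPKM in w1118 larvae, and 52.7 FPKM in MhcGal4>baboACT and 36.6 FPKM in MhcGal4 larvae.

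Markers of other tissues that a carcass can hold also differed between the groups, and their part in the glue values was not tested. Their counts are to be read beside the 18.4% of all genes measured that were called higher and the 39.9% called lower in smox, and the 29.2% called higher and the 14.7% called lower with activated Baboon. Midgut markers summed to 52.4 FPKM in smox and 436 FPKM in w1118 larvae, with 4 of 5 measured called lower. They summed to 124 FPKM in MhcGal4>baboACT and 381 FPKM in MhcGal4 larvae, with 2 of 5 called lower, so that here they were lower where the glue genes were higher. Fat body markers had 5 of 7 higher and 2 lower in smox, and 1 of 7 higher and 4 lower with activated Baboon.

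Markers of the ring gland, which makes ecdysone, had 0 of 4 called in smox. Their median log2 ratio of 3.27 is a midpoint that none of them had. It lies between the high ratios of phm and spok and those of sad (-0.22) and sro (0.04). Of the 6 listed, 5 were higher and 1 lower in smox, called or not. The 5 include sro, at 40.8 FPKM in smox and 39.7 FPKM in w1118 larvae. The gene phm had 2.10 FPKM in smox and 0.0232 FPKM in w1118 larvae (q = 0.324 in the authors' deposited table). The gene spok had 3.53 FPKM in smox and 0.0229 FPKM in w1118 larvae (q = 0.25 in the authors' deposited table). With activated Baboon 1 of 5 was called higher and 3 lower, where 29.2% of all genes measured were called higher and 14.7% lower. The 3 lower calls fell to 0 with a mean of at least 5 FPKM. Among them phm had 0.202 FPKM in MhcGal4>baboACT and 7.60 FPKM in MhcGal4 larvae, while sro had 22.1 FPKM in MhcGal4>baboACT and 11.7 FPKM in MhcGal4 larvae. Muscle markers had 4 of 10 called higher and 1 lower in smox, where 18.4% of all genes were called higher and 39.9% lower, and 0 of 9 higher and 6 lower with activated Baboon. Epidermis and cuticle markers had 1 of 5 higher and 4 lower in smox, and 3 of 5 higher and 0 lower with activated Baboon. Hemocyte markers had 1 of 4 higher and 3 lower in smox, and 1 of 4 higher and 2 lower with activated Baboon. Of the nervous system markers, 0 of 2 measured in smox and 0 of 3 with activated Baboon were called.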

How the data were processed

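Cufflinks and Cuffdiff are named, without versions, in the submitters' processing notes; no source used here gives the aligner, build, annotation or read numbers. Per the file headers, the authors deposited 1 FPKM per gene and group in 1 table per experiment, with a log2 fold change, a test statistic (a score with no fixed range), a p-value and a q-value, and 0 columns hold single libraries. Spreadsheet error text stands in 423 log2 cells of the smox table and 480 of the baboACT table. Whether the 3 libraries per group were separate dissections is not stated in the labels, so the spread behind the deposited q-values may be technical.

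Log2 ratios were computed here from the deposited FPKM with no pseudocount (pandas 2.3.3), and differed from the authors' column by at most 0.040 over measured genes. A measured gene was tested by the authors, had FPKM above 0 in both groups and a mean of at least 1, and stood alone in its row under a name that occurs once. No test of its own was run: limma, foreseen for values per library, could not be fitted to group values. The script was checked on simulated ratios. Of the low FPKM values, scaled by locus length, 39.0% to 46.7% lay within 10% of a whole multiple of the best unit for 1 fragment, where evenly spread values would give 20%. Whole fragments were thus not recovered for nearly all genes, and depth is unknown.

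The members and the 12 gene lists were chosen with earlier results of these data known. Of 113 list entries, 111 were found, 6 of them through a RefSeq synonym. The text names all members, up to 4 called genes per list with the largest ratios, genes that show what is missing, the 6 most alike genes and the nearest rows. The gene sll was picked after its values were seen. Starts in the tables count from 0, so 1 was added. Positions on 3L, 3R and X differ from BDGP6, whose annotation served for names, strands, exon numbers and codon numbers.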

Additional observations from a re-analysis of the deposited data

How the results depend on the processing

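The counts of called glue genes were 7 in smox and 8 with activated Baboon under a q of 0.01 and with a 2-fold minimum as well. The median log2 ratio of the glue genes was -3.76 in smox and 5.28 with activated Baboon with a pseudocount of 0.1 FPKM, -3.38 and 5.05 with a pseudocount of 1 FPKM, and -3.67 and 5.22 with the median ratio of all genes set to 0. With a 2-fold minimum the genes called in smox were 351 higher and 361 lower in place of 1421 and 3079, and those called with activated Baboon 361 higher and 136 lower in place of 2262 and 1143; over the 4 pathway lists they were 2 higher and 4 lower in smox, against 7 and 17, and 7 higher and 0 lower with activated Baboon, against 26 and 1. The other filters left these totals within 1.5 times. Single marker lists moved more: the gland markers called higher with activated Baboon were 4, against 2 at a q of 0.01 and 1 with a mean of at least 5 FPKM, and the ring gland markers called lower were 3, against 0 with a mean of at least 5 FPKM. Of the 6 genes most like the glue genes, 3 stayed with a pseudocount of 1 FPKM and 2 with a mean of at least 5 FPKM. No paired analysis was possible because the tables hold 1 value per group, and leaving out single replicates was not run for the same reason. Read depth is unknown, so values under 1 FPKM, such as Sgs1 in smox, w1118 and MhcGal4 larvae, have no known precision.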
